A study of Mus musculus with 9 samples.

Results

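The cytosolic ribosomal protein genes were taken as all rows whose symbol begins with Rpl or Rps followed by a digit, together with Rplp0, Rplp1, Rplp2 and Rpsa. Ribosomal S6 kinases and named pseudogenes were left out. Of 86 such rows, 82 had at least 10 counts in at least 3 libraries and were kept, out of 23393 rows used, and all 82 were among the 12219 genes tested. By name, 34 belonged to the small 40S subunit and 48 to the large 60S subunit. Of the 4 rows not kept, Rpl26 and Rpl10l had 0 counts in each of the 9 libraries, Rpl3l had at most 2 counts in a library and Rpl39l at most 29.

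The RNA came from regulatory T cells (Tregs), a CD4 T cell class marked by Foxp3 that keeps immune responses in check, sorted from mouse spleen. The wild-type cells were split by ST2, the interleukin-33 receptor encoded by Il1rl1, into 3 libraries of ST2-low and 3 of ST2-high Tregs. A further 3 libraries carried the genotype label ST2KO. The labels give no treatment, time, strain, age or sex, do not say which part of Il1rl1 was altered in ST2KO, and do not tie replicates to animals. The p-values therefore rest on the spread between samples of a group, which may be technical. Il1rl1 stood at 2.16, 3.59 and 2.11 CPM, a level scaled to library size, in ST2-low, 516.1, 420.7 and 547.3 CPM in ST2-high and 57.7, 61.4 and 83.6 CPM in ST2KO. A count per gene cannot tell which exons were read, so this leaves the ST2KO label unchecked, and ST2KO means the libraries labelled so. The mean Foxp3 level was 461.6 CPM for ST2-low, 567.7 CPM for ST2-high and 430.2 CPM for ST2KO.

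Each ribosome is built from ribosomal RNA and a single copy of most ribosomal proteins, so the genes of both subunits are usually transcribed at high and similar rates. Their messenger RNAs carry a pyrimidine tract right at the 5′ end, the TOP motif, through which mTOR and Larp1 control their translation. Resting T cells keep few ribosomes and make many more when activated, under control of Myc and mTOR. Several members also act outside translation. Rpl5 and Rpl11 bind the p53 regulator Mdm2 when ribosome assembly fails, and Rpl22 and its paralog Rpl22l1 have separate roles in T cell development.

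The bases around the transcription start are shown for 6 members whose values are described below, since the TOP motif is defined there. Each line gives 20 bases before the start and 20 bases from it, 5′ to 3′, from RefSeq on GRCm38.p6, with the longest run of C or T in capitals. Where the promoter entries list more than 1 start, as for Rps21 and Rps24, the start with the longest run was taken. The single entry for Rps2 lies inside the RefSeq gene, which begins at base 24718121 of its chromosome.
Rps21 (chr2:180257359-180257398, plus strand): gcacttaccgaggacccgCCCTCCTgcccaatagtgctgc
Rps27 (chr3:90213629-90213668, minus strand): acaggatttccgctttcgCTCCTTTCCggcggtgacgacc
Rps24 (chr14:24490658-24490697, plus strand): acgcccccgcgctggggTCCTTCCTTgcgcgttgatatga
Rpl36a (chrX:134585634-134585673, plus strand): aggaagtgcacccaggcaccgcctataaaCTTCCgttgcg
Rps2 (chr17:24720043-24720082, plus strand): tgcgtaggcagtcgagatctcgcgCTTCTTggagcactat
Rpl22l1 (chr3:28805488-28805527, plus strand): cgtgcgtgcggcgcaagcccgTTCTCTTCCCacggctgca
In Rps21, Rps27 and Rps24 the run of 7, 9 and 9 pyrimidines spanned the start. The run of 10 in Rpl22l1 began just after it. In Rps2 and Rpl36a the longest runs, of 6 and 5, lay further past the start and did not reach it.

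Of the 82 members, 61 had a promoter entry. Within 20 bases of a start, 30 of the 61 (49.2%) held a run of at least 8 C or T, against 18.4% of 27025 genes. The core of the ETS site, CCGGAAG on either strand, lay in the promoter of 24 (39.3%), against 9.93% of all genes, and the core of the YY1 site, AAGATGGC on either strand, in 6 (9.84%), against 3.19%. These letters are a description and not a test of binding. Members with and without the pyrimidine run had nearly the same median log2 fold change in ST2-high against ST2-low, -0.18 and -0.18. The medians were -0.07 and -0.05 in ST2KO against ST2-low and 0.11 and 0.14 in ST2KO against ST2-high.

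Libraries held from 11659659 counts in ST2KO replicate 3 to 43406680 in ST2KO replicate 1. Levels are CPM scaled with TMM factors, which adjust for the composition of a library. Per kilobase of transcript, Rplp0 had the highest mean level (1420 CPM per kb), followed by Rpl13a (1376), Rplp1 (1335) and Rps24 (1237). Rplp0, Rplp1 and Rplp2 form the P-stalk that recruits elongation factors. At the other end 5 members had a mean under 10 CPM. Rps27 averaged 8.82 CPM, Rpl34 1.71 CPM and Rpl30 0.671 CPM, and the others were Rps19bp1, an Rps19-binding protein that the naming rule takes in, and Rps4y2, which RefSeq lists as the pseudogene Rps4l. Rpl26, Rpl30 and Rpl34 were singled out here after their values were seen. Ribosomal protein genes have many near-identical copies, and how the authors shared out reads between them is not given in the sources used here. The levels of single members are therefore uncertain.

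ST2-high replicate 3 stood apart from the other libraries of its group. Its chi-square per gene against ST2-high replicates 1 and 2 was 17.18 and 20.41, against 4.65 to 8.43 for the other pairs within a group. In it, 78 of the 82 members were lower than in both other ST2-high libraries, which held for 38.6% of all genes tested. It had the lowest level of all 9 libraries for 72 members. The median member was lower by 0.26 on the log2 scale than in the mean of replicates 1 and 2, against a median of -0.0023 for all genes. The shift was not particular to the members. The same median was -0.21 for translation factors and other genes with TOP messenger RNAs and -0.20 for nuclear-encoded respiratory chain subunits. It was -0.14 for mitochondrial ribosomal protein genes and -0.07 for ribosome assembly factors. In that library Rn45s, the ribosomal RNA precursor, took 16.7% of counts, against 13.0% and 12.1% in replicates 1 and 2. Of the members, 66 of 81 with a known length had a transcript under 1 kb. Other genes of at least 10 CPM with transcripts under 1 kb had a median difference of -0.06 in that library (n = 1220), and those of 2 kb or more 0.03 (n = 4496). The part of transcript length or RNA quality in these values was not tested. The counts of members that changed, and the calls of named members that depend on it, are given with and without this library.

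Together the members took 3.12%, 2.91% and 3.07% of the counts in ST2-low, 2.81%, 2.99% and 2.28% in ST2-high and 3.26%, 3.11% and 3.08% in ST2KO. The lowest value, in ST2-high replicate 3, lay well below the others, and ST2-high overlapped ST2-low but not ST2KO. The means were 3.03 ± 0.112%, 2.69 ± 0.368% and 3.15 ± 0.0985% (SD, n = 3 each). The exact two-sided permutation test gave p = 0.2 for ST2-high against ST2-low, 0.4 for ST2KO against ST2-low and 0.1 for ST2KO against ST2-high, where 0.1 is the smallest p that 3 against 3 allow. With Rn45s left out of the total, the means were 3.55%, 3.12% and 3.75%, no groups overlapped, and each p was 0.1. Without ST2-high replicate 3 the difference of ST2-high from ST2-low shrank from -0.34 to -0.14 percentage points, and that of ST2KO from ST2-high from 0.46 to 0.25. In bulk samples, fewer cells of a type and less RNA per cell cannot be told apart.

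**Figure D1:**
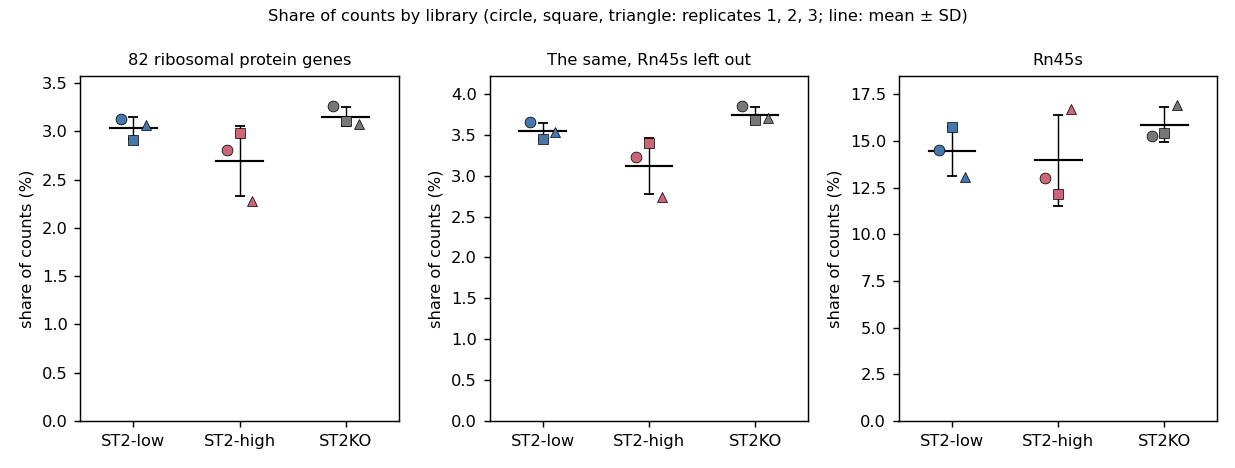
Share of the counts (%, y axis) taken by the 82 ribosomal protein genes, by the same genes with Rn45s left out of the total, and by Rn45s, in each library by group; lines and bars are means and SD of 3 libraries. ST2-high replicate 3 (triangle) is lowest in the first 2 panels, at 2.28% and 2.74%, and highest of its group for Rn45s, at 16.7%.

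The scale mattered for ST2KO against ST2-low. As a share of counts the members were 0.117 percentage points higher in ST2KO. On the TMM scale their summed level was lower, 29777 ± 800 CPM against 31256 ± 793 CPM (SD, n = 3 each), since the TMM factors ran from 1.05 to 1.06 in ST2KO and from 0.949 to 0.992 in ST2-low. For ST2-high, at 27620 ± 2889 CPM, both scales gave a lower value than either other group. The comparisons below are on the TMM scale.

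The order of the 3 group means was ST2-low, ST2KO, ST2-high for 51 of the 82 members, an order that 802 of all 12219 genes had. ST2KO was highest and ST2-high lowest for 13 members, and ST2KO lowest with ST2-low highest for 14. Of the last 4, 2 had ST2-high highest and ST2-low next, and 2 had ST2-high highest and ST2KO next. Without ST2-high replicate 3 the first order held for 37 members (804 of all genes), and 21 had ST2KO lowest with ST2-low highest. The 60S-named to 40S-named ratio of summed counts was nearly flat, 1.21 ± 0.0136 in ST2-low, 1.23 ± 0.00915 in ST2-high and 1.19 ± 0.0063 in ST2KO. ST2-high and ST2KO did not overlap (exact permutation p = 0.1), and did not overlap without ST2-high replicate 3 either, where the ST2-high mean was 1.22.

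**Figure D2:**
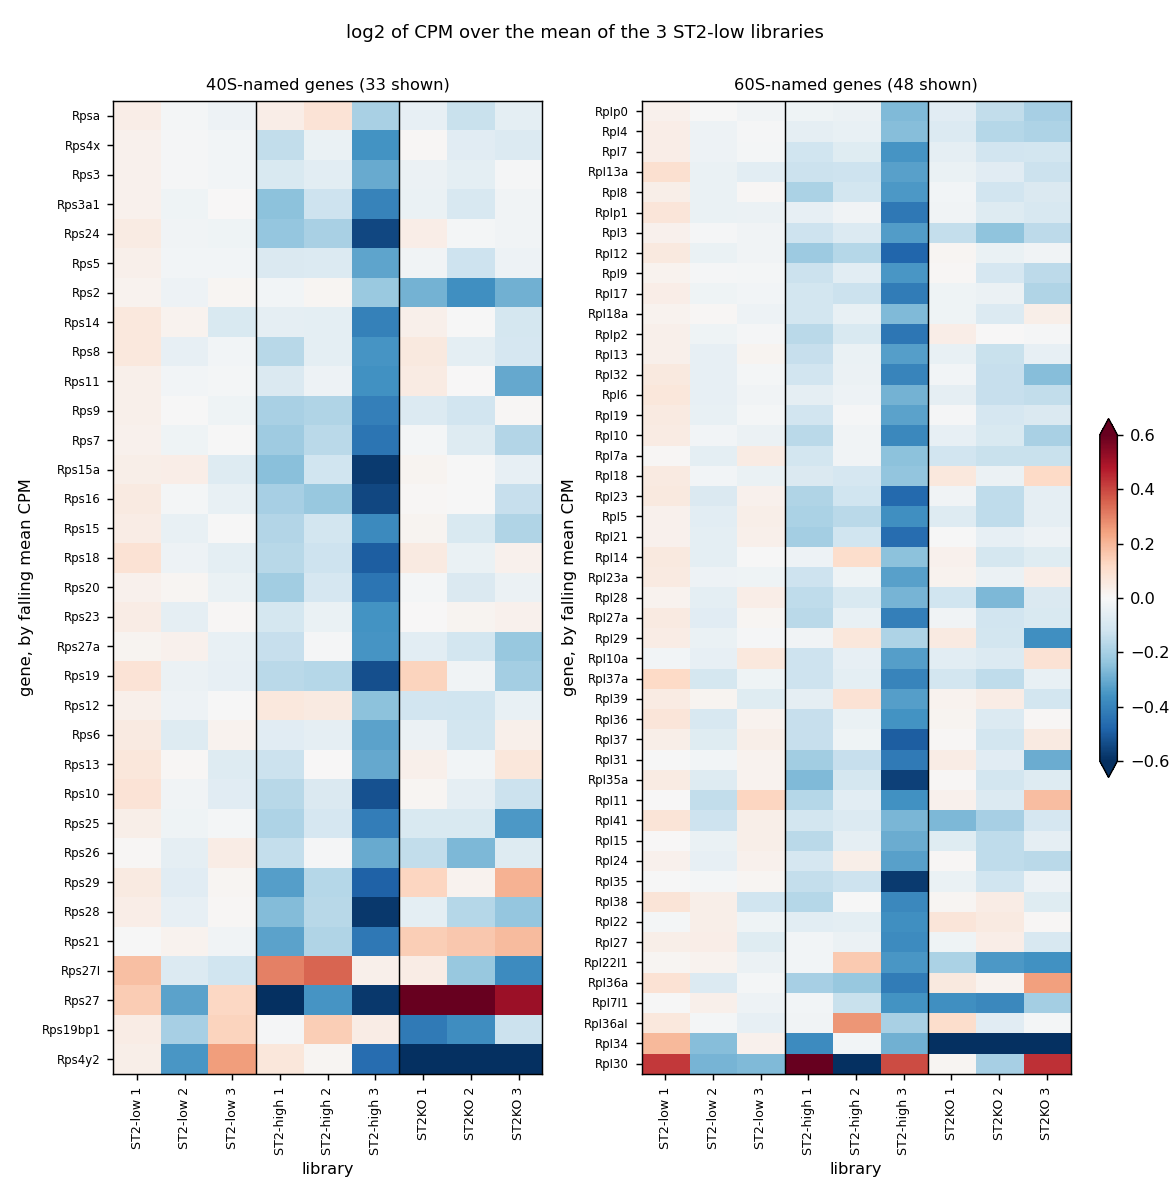
Log2 ratio of each member's CPM (rows, 40S-named left, 60S-named right, by falling mean CPM) to its mean in the 3 ST2-low libraries, for each library (columns); colours stop at 0.6 in either direction, and 1 40S-named member is not shown. The column of ST2-high replicate 3 is blue for nearly all members, and Rps27 and Rps21 are red in the ST2KO columns.

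In ST2-high Tregs, ribosomal protein genes were slightly lower than in ST2-low Tregs. Of the 82, 42 fell, 0 rose and 40 did not pass the test, while 10.8% of all genes fell and 15.3% rose. The 0 rises came from edgeR's quasi-likelihood test at a Benjamini-Hochberg adjusted p of 0.05, and DESeq2's Wald test and limma-voom also gave 0 rises. At an unadjusted p under 0.05, 0 were higher and 62 lower. The members' median log2 fold change was -0.17, against -0.00236 for all genes. All libraries of ST2-high lay below all of ST2-low for 45 members (17.6% of all genes) and above them for 0 (20.5%). The falls were spread over both subunits, with 20 of 34 in the 40S and 22 of 48 in the 60S subunit. Counts depended on single libraries. Without ST2-high replicate 3, 23 fell (11.3% of all genes) and 1 rose (15%), Rps27l. All 23 had also fallen with all libraries, and the median was -0.09. Without ST2-low replicate 1 the number of falls was 18, and without ST2-low replicate 3 it was 25.

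The largest fall was that of Rps27, 1.48-fold (log2 -0.57, SE 0.157, adjusted p = 0.00693), at a mean under 10 CPM in both groups. Among members of at least 10 CPM, the largest falls with groups that did not overlap were in 40S genes, of which 5 are described. Rps28, which lies near the messenger RNA exit, had 183.1, 172.6 and 179.4 CPM in ST2-low and 149.0, 158.7 and 119.3 CPM in ST2-high. It was 1.25-fold lower (log2 -0.32, SE 0.0783, adjusted p = 0.00491). Rps29, a small zinc-binding protein of the 40S head, had 215.6, 198.2 and 209.8 CPM in ST2-low and 165.1, 184.8 and 148.7 CPM in ST2-high. The groups of both genes did not overlap, and ST2-high replicate 3 was lowest in each. Rps29 fell by 0.32 on the log2 scale (SE 0.0642, adjusted p = 0.00037).

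Rps24, which is mutated in some families with Diamond-Blackfan anaemia, had 718.1, 684.5 and 682.2 CPM in ST2-low and 592.5, 606.7 and 476.5 CPM in ST2-high. Its log2 fold change was -0.31 (adjusted p = 0.0006). Rps16 had 490.6, 469.9 and 459.5 CPM against 412.9, 405.0 and 324.6 CPM. Rps21, whose start is shown above, had 151.0, 153.4 and 148.7 CPM against 120.8, 133.2 and 112.1 CPM (adjusted p = 7.62e-05). In all 3 genes each ST2-high library lay below each ST2-low library. Without ST2-high replicate 3 these 5 genes still fell, with log2 fold changes from -0.25 for Rps21 and Rps29 to -0.21 for Rps16 and Rps24.

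Among the 8 members with the highest mean CPM, Rps4x, Rpl7, Rps3, Rpl13a and Rpl8 fell and Rplp0, Rpsa and Rpl4 did not pass. Rps3, a 40S protein at the messenger RNA entry that also acts in DNA repair, had 796.4, 779.4 and 774.5 CPM in ST2-low and 736.1, 749.5 and 635.9 CPM in ST2-high. Rpsa, the 40S protein also known as the laminin receptor, had 1211, 1171 and 1155 CPM against 1214, 1247 and 1029 CPM. Its groups overlapped, 2 of 3 ST2-high libraries lay above all of ST2-low, and the log2 fold change was -0.02 (adjusted p = 0.861), or 0.06 without ST2-high replicate 3. In the P-stalk Rplp2 fell (log2 -0.22, adjusted p = 0.00821). Rplp0 and Rplp1 stood at -0.10 and -0.15 and did not pass (adjusted p = 0.196 and 0.19). Of these 6 falls, 4 depended on ST2-high replicate 3. Without it Rps4x, Rpl7, Rps3 and Rpl13a no longer passed (adjusted p = 0.16, 0.133, 0.232 and 0.0572), with log2 fold changes from -0.13 for Rpl13a to -0.08 for Rps3. Rpl8 and Rplp2 still fell, by 0.15 and 0.13 on the log2 scale (adjusted p = 0.0168 and 0.0458).

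**Figure D3:**
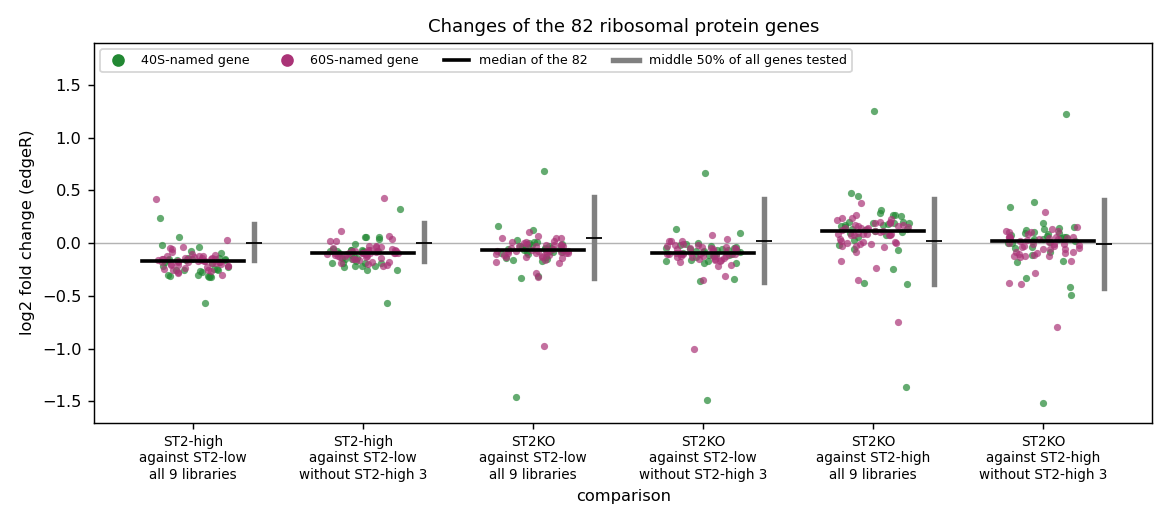
Log2 fold change (y axis, edgeR) of each of the 82 members in the 3 comparisons, with all 9 libraries and without ST2-high replicate 3; black lines are the members' medians and grey bars the middle 50% of all genes tested, with their median. The members' median moves from -0.17 to -0.09 in ST2-high against ST2-low and from 0.12 to 0.02 in ST2KO against ST2-high when that library is left out.

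**Figure D4:**
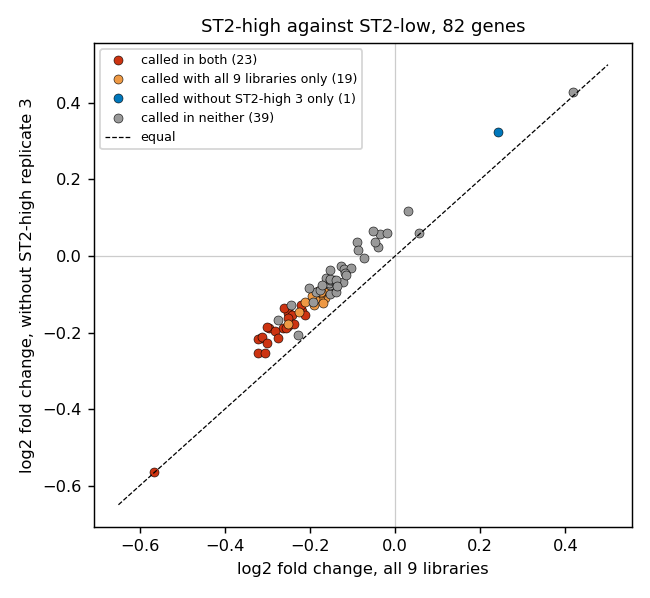
Log2 fold change of each member in ST2-high against ST2-low with all 9 libraries (x axis) and without ST2-high replicate 3 (y axis); colours show in which fit it passed the test and the dashed line marks equal values. Most points lie above the line, and 23 members passed in both fits.

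Compared with ST2-low, few ribosomal protein genes passed the test in ST2KO with all 9 libraries. Of the 82, 2 rose, 13 fell and 67 did not pass. Of all genes, 33% rose and 29.3% fell, so in this fit the members' shares were under the background in both directions. For the falls this depended on ST2-high replicate 3, as given below. The median log2 fold change was -0.06, against 0.05 for all genes. Both rises were in the 40S subunit, and the falls were 4 of 34 in the 40S and 9 of 48 in the 60S. The groups did not overlap for 2 members that were higher (36% of all genes) and 24 that were lower (31.2%). Without ST2-high replicate 3, 33 of the 82 fell, a larger share than the 31.4% of all genes, and 2 rose, against 31.8%. That library is of neither group but enters the filter, the scaling and the shared estimate of the spread. When it was left out, the median log2 fold change was -0.09 for the members and 0.02 for all genes. The part of scaling and of spread in the added falls was not tested. The number of falls was 6 without ST2-low replicate 1, 7 without ST2-low replicate 3 and 8 without ST2KO replicate 2. The rises were 1 without ST2-low replicate 2, where the median moved to -0.11.

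The 2 rises were Rps21 and Rps27. Rps21 had 167.2, 168.7 and 172.3 CPM in ST2KO, above every wild-type library, and stood above ST2-low (log2 0.16, SE 0.0548, adjusted p = 0.0103). Rps27, a zinc-binding 40S protein, had 9.0, 6.5 and 8.8 CPM in ST2-low, 4.8, 6.3 and 5.4 CPM in ST2-high and 13.9, 13.2 and 11.5 CPM in ST2KO. The 3 groups did not overlap, and ST2KO was 1.61-fold above ST2-low (log2 0.69, SE 0.143, adjusted p = 0.000128). Its level was low for a 40S gene, and how its reads were shared with near-identical copies was not tested.

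Rps2, a 40S protein at the messenger RNA entry, had 620.6, 598.2 and 615.4 CPM in ST2-low, 603.7, 616.4 and 524.0 CPM in ST2-high and 501.9, 473.0 and 501.3 CPM in ST2KO. All 3 ST2KO libraries lay below all 6 wild-type libraries. It was 1.24-fold below ST2-low (log2 -0.31, SE 0.0558, adjusted p = 1.54e-05), while ST2-high and ST2-low overlapped and their difference did not pass (log2 -0.07, adjusted p = 0.38). Rpl3, which lies near the peptidyl transferase centre, had 731.6, 716.2 and 708.6 CPM in ST2-low and 651.8, 608.1 and 644.5 CPM in ST2KO (log2 -0.18, adjusted p = 0.00709). Rps25 and Rps26, the latter at the messenger RNA exit channel, fell by 0.17 and 0.16 on the log2 scale (adjusted p = 0.0479 and 0.0243). Rplp0 and Rpl4 also fell, by 0.14 and 0.15.

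Of the 6 variant, paralogous or misnamed members with enough counts, 3 were among the 13 falls and 0 rose. Of all genes, 29.3% fell and 33% rose. Rpl7l1, a paralog of Rpl7 that acts in ribosome assembly, had 55.2, 56.4 and 54.0 CPM in ST2-low and 42.8, 42.2 and 48.0 CPM in ST2KO (log2 -0.32, SE 0.0751, adjusted p = 0.000438). Rpl22l1 had 74.9, 75.4 and 72.6 CPM in ST2-low and 65.2, 58.6 and 57.8 CPM in ST2KO (log2 -0.29, SE 0.0905, adjusted p = 0.0103). Neither pair of groups overlapped. Rps4y2 fell as well, from between 0.993 and 1.51 CPM to between 0.246 and 0.543 CPM. Rps27l, Rpl36al and Rps19bp1 did not pass (log2 -0.14, 0.02 and -0.33).

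**Figure D5:**
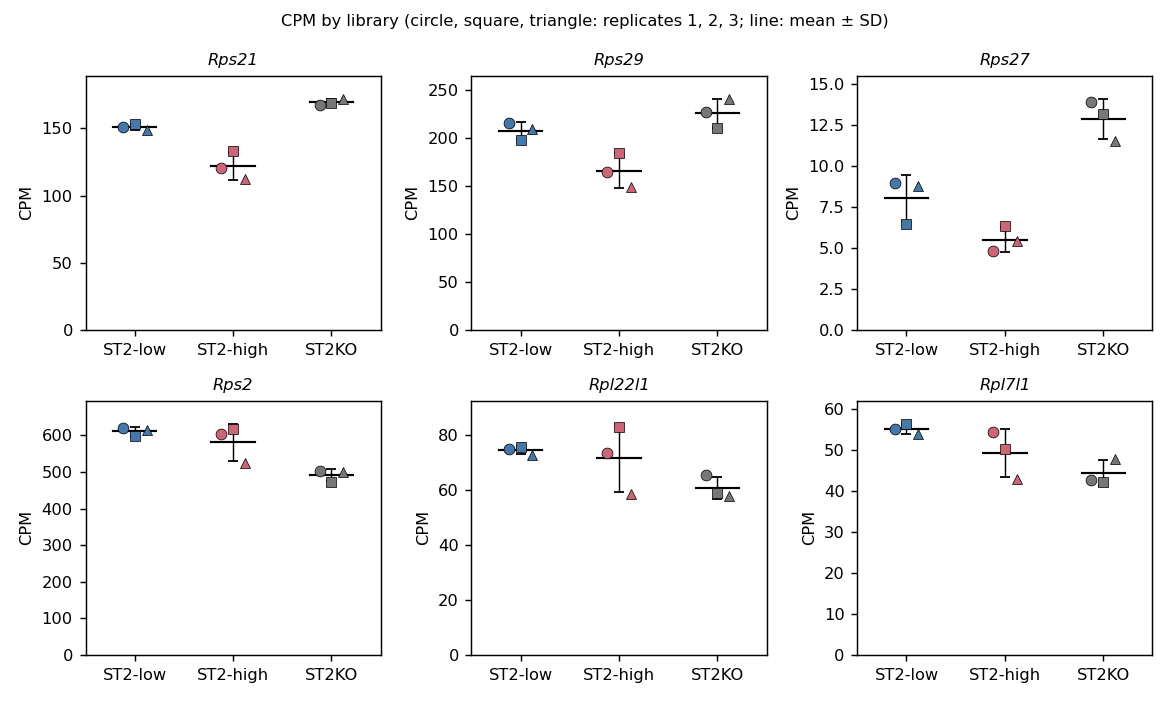
CPM (y axis, from 0) of 6 members by library and group, with mean and SD of 3 libraries. On average, Rps21, Rps29 and Rps27 are lowest in ST2-high and highest in ST2KO, while Rps2, Rpl22l1 and Rpl7l1 are lowest in ST2KO.

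Compared with ST2-high, 30 of the 82 members rose in ST2KO, 7 fell and 45 did not pass, against 31.9% of all genes that rose and 32.6% that fell. This comparison shares its libraries with both others. The median log2 fold change was 0.12, against 0.02 for all genes. The groups did not overlap for 20 members that were higher (33.5% of all genes) and 4 that were lower (33.3%). The rises were 15 of 34 in the 40S and 15 of 48 in the 60S subunit. Without ST2-high replicate 3, 11 rose (28.9% of all genes) and 10 fell (33.6%), the median was 0.02, and 17 of the 37 calls were shared. Without ST2-high replicate 2, 51 rose and 3 fell, and without ST2KO replicate 2 the falls were 3.

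The largest rises were Rps27, 2.38-fold (log2 1.25, SE 0.15, adjusted p = 1.73e-08), Rps21, 1.39-fold (log2 0.47, SE 0.0552, adjusted p = 1.18e-08), and Rps29, 1.36-fold (log2 0.44, SE 0.0641, adjusted p = 1.15e-06). Rps29 had 227.1, 210.7 and 240.6 CPM in ST2KO, above its 3 ST2-high libraries. Rpl36a had 59.9, 58.8 and 51.5 CPM in ST2-high and 71.8, 69.8 and 81.6 CPM in ST2KO (1.30-fold, adjusted p = 2.38e-05). Rps24 and Rps15a rose by 0.32 and 0.29 on the log2 scale. All 6 also passed without ST2-high replicate 3, at log2 fold changes of 1.23, 0.39, 0.35, 0.29, 0.19 and 0.15 in the order named. Rps2 fell 1.18-fold (log2 -0.24, adjusted p = 0.000407), or by 0.33 on the log2 scale without that library.

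Of the 6 variant members, 5 fell and 0 rose in ST2KO against ST2-high, where 32.6% of all genes fell and 31.9% rose. Among the 5, Rps19bp1 and Rpl7l1 passed narrowly (adjusted p = 0.0478 and 0.0496), and Rps4y2 averaged 0.953 CPM. Without ST2-high replicate 3, 4 fell and 0 rose (33.6% and 28.9% of all genes), and Rps19bp1 no longer passed (adjusted p = 0.051). Rps27l, which p53 induces, had 17.3, 17.9 and 14.3 CPM in ST2-high and 14.4, 11.98 and 10.8 CPM in ST2KO. It was 1.30-fold lower (log2 -0.38, adjusted p = 0.00716), although the groups overlapped. The ratio of Rps27l to Rps27 counts was 1.77, 2.05 and 1.47 in ST2-low, 3.59, 2.83 and 2.65 in ST2-high and 1.04, 0.911 and 0.936 in ST2KO, with no overlap between the 3 groups. Rps27 averaged only 8.82 CPM, and how its reads were shared with near-identical copies was not tested, so this ratio is uncertain. The ratio of Rpl22l1 to Rpl22 counts was 0.603, 0.588 and 0.590 in ST2-low, 0.612, 0.689 and 0.601 in ST2-high and 0.495, 0.451 and 0.458 in ST2KO. ST2KO lay below both wild-type groups, which overlapped. Rpl22 itself had a log2 fold change of 0.05 in ST2KO against ST2-low (adjusted p = 0.517) and 0.20 against ST2-high (adjusted p = 0.00612). Without ST2-high replicate 3 the value against ST2-high was 0.08 and did not pass (adjusted p = 0.159). Over 12 tests of 4 such ratios the smallest exact permutation p was 0.1, the least that 3 against 3 allow, and 0.133 after Benjamini-Hochberg adjustment. The ratios were chosen after the values were seen.

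Outside the naming pattern, the ribosomal protein gene Fau and the Rack1 gene Gnb2l1 did not pass edgeR's test in any comparison. Gnb2l1 had 965.4, 957.1 and 934.9 CPM in ST2-low, 921.8, 929.7 and 759.4 CPM in ST2-high and 936.5, 876.2 and 889.0 CPM in ST2KO, again lowest in ST2-high replicate 3. Of 76 mitochondrial ribosomal protein genes, 1 rose and 3 fell in ST2-high against ST2-low, with a median of 0.01, where 15.3% of all genes rose and 10.8% fell. In ST2KO against ST2-low 22 of the 76 rose and 14 fell, both under the shares of all genes, 33% and 29.3%.

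Translation factors and other genes with TOP messenger RNAs were lower than in ST2-low in both other groups where they passed with all libraries. Of 22, 0 rose and 5 fell in ST2-high against ST2-low (median -0.12), where 15.3% of all genes rose and 10.8% fell. Without ST2-high replicate 3 there were 2 rises and 2 falls (15% and 11.3% of all genes). In ST2KO, 0 rose and 14 fell against ST2-low (33% and 29.3% of all genes). Against ST2-high 2 rose and 9 fell (31.9% and 32.6%). Without ST2-high replicate 3, 17 fell against ST2-low (31.4%) and 14 against ST2-high (33.6%), and the 2 rises no longer passed. Against ST2-low, edgeR's unadjusted test, DESeq2's Wald test and limma-voom gave 0 rises in either group as well. The median log2 fold change against ST2-low was -0.16, beside -0.06 for the ribosomal proteins, and the difference between the lists was not tested. Eif3a, a subunit of the initiation factor eIF3, was 1.38-fold lower in ST2KO than in ST2-low. Pabpc1, the poly(A)-binding protein, was 1.40-fold lower and Eef2, the translocation factor, 1.31-fold lower (adjusted p = 1.96e-09, 5e-09 and 1.09e-07).

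Of 40 ribosome assembly factors, 1 rose and 9 fell in ST2-high against ST2-low, where 15.3% of all genes rose and 10.8% fell. In ST2KO against ST2-low 5 of the 40 rose and 22 fell, beside 33% and 29.3% of all genes. Riok1, a kinase of late 40S maturation, was 2.55-fold lower in ST2KO than in ST2-low. Nop56, a core protein of the box C/D particles that guide ribosomal RNA methylation, was 1.54-fold lower, and Gnl3, or nucleostemin, 1.67-fold lower. Nop56 was also 1.25-fold lower in ST2-high than in ST2-low (adjusted p = 1.2e-05). In ST2KO against ST2-low, 4 of 14 genes of RNA polymerase I transcription rose and 4 fell, near the shares of all genes. In ST2-high against ST2-low 1 of these 14 genes rose and 4 fell. Their product Rn45s took 13.1% to 15.7% of counts in ST2-low, 12.1% to 16.7% in ST2-high and 15.2% to 16.9% in ST2KO, and how ribosomal RNA was removed from the libraries is not given in the labels.

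Of 17 regulators of ribosomal protein synthesis, 3 rose, 4 fell and 10 did not pass in ST2-high against ST2-low, where 15.3% of all genes rose and 10.8% fell. In ST2KO against ST2-low 4 rose, 5 fell and 8 did not pass, beside 33% and 29.3% of all genes. Myc was 1.62-fold higher in ST2-high and 1.70-fold higher in ST2KO than in ST2-low (adjusted p = 9.24e-09 and 2.01e-10). Rheb, which activates mTOR complex 1, was 2.12-fold lower in ST2KO than in ST2-low (adjusted p = 1.12e-14). Akt1, a kinase upstream of mTOR, was 1.29-fold higher in ST2-high, and Pdcd4, a translation inhibitor, 1.25-fold lower. In ST2KO the mean of Pdcd4 lay above that of ST2-low, 379.8 CPM against 298.7 CPM. The mean of Mtor did too, at 112.8 CPM against 85.7 CPM.

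Markers of other cells, and of the Tregs themselves, differed between the groups. Beside the counts below, the shares of all genes that rose and fell were 15.3% and 10.8% in ST2-high against ST2-low. They were 33% and 29.3% in ST2KO against ST2-low, and 31.9% and 32.6% in ST2KO against ST2-high. Of 10 naive T cell markers, 8 fell and 1 rose in ST2-high against ST2-low, and 5 fell and 2 rose in ST2KO. In ST2KO against ST2-high 4 fell and 5 rose (median log2 0.17). Their summed level was 6422 to 6842 CPM in ST2-low, 4682 to 4958 CPM in ST2-high and 3131 to 3548 CPM in ST2KO. Much of the low sum in ST2KO was the homing receptor gene Ccr7, with means of 2004, 1382 and 180.2 CPM in that order. Bach2, a repressor kept on in resting T cells, averaged 294.4, 184.6 and 266.8 CPM and was higher in ST2KO than in ST2-high. Of 15 myeloid and dendritic markers, 1 rose and 5 fell in ST2-high and 13 fell in ST2KO, both against ST2-low, and they summed to 167 to 216, 154 to 155 and 46.2 to 61.5 CPM. Of 6 neutrophil markers 5 fell in ST2KO, with sums of 9.05 to 35.8, 11.7 to 20.2 and 2.13 to 4.09 CPM. B cell markers summed to 126 to 187, 145 to 178 and 112 to 144 CPM. Of 11, 1 rose in ST2-high and 6 fell in ST2KO, both against ST2-low. The 5 plasma cell markers summed to 205 to 259, 374 to 411 and 197 to 216 CPM. Prdm1 and Irf4, which Tregs also express, were the 2 that rose in ST2-high against ST2-low. Prdm1 averaged 32.7, 113.5 and 46.6 CPM and Irf4 93.5, 178.4 and 95.4 CPM. The more specific Sdc1 averaged 3.47, 4.32 and 1.49 CPM and Mzb1 6.48, 6.37 and 2.52 CPM, and both fell in ST2KO against ST2-low. NK cell markers summed to 38.1 to 40.3, 30.7 to 33.4 and 28.7 to 37.8 CPM, with Klra8 at 0, and erythroid and platelet markers to 19.9 to 30.7, 15.4 to 19.4 and 18.9 to 25.2 CPM, with 4 globin genes at 0. The 6 Treg defining markers were present in every library. Of these, Ikzf2, Foxp3 and Il2ra rose in ST2-high against ST2-low. In ST2KO against ST2-low Il2ra and Ikzf2 rose, and Ctla4, an inhibitory receptor gene, fell 2.54-fold, from a mean of 1996 CPM to 786.3 CPM. The part of these cells in the ribosomal protein values was not tested.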

How the data were processed

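RNA was sequenced from 9 samples of sorted mouse spleen Tregs, 3 per group, grouped by the genotype labels. The deposited files hold whole-number read counts per gene symbol, 1 sample a file, judged from the values. Not given in the sources used here are the authors' aligner, build, annotation, counter, kit and strand setting, so reads shared by near-identical or overlapping genes cannot be told apart.

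Each file had 23420 rows, of which 27 with a symbol turned into a date were left out (0.182% to 0.206% of counts). Counts were scaled with TMM and filtered with filterByExpr (minimum count 10, minimum total 15). They were fitted with edgeR 4.0.16 (robust quasi-likelihood, all 9 samples, no covariates; limma 3.58.1, R 4.3.3), adjusting over 12219 genes at 0.05. Folds and standard errors are those of this fit, and SE is the log2 fold change over the square root of F. Shares and ratios were compared with exact two-sided permutation tests. The fit was tested on simulated data, with changes planted in genes drawn at random from all genes tested. Changes as small as most members' were seldom recovered there. The drawn genes were not matched to the members' levels, so that rate does not carry over to the members. A gene that did not pass may still differ. Transcript lengths are medians from GENCODE M21, and promoters are RefSeq entries matched by symbol. All 82 members matched the RefSeq gene table, 1 by an older symbol.

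The members and lists were chosen with earlier results of these data known. Named genes were the 8 with the highest mean CPM and the P-stalk genes and Rpsa. Added to these were up to 6 rises and 6 falls per comparison that passed, did not overlap and averaged at least 10 CPM in the higher group, every variant member with its paralog, and the leading genes of the other lists. Values of a few of these are not reported here. Length classes, paralog ratios, group orders, promoter motifs, and the group orders and subunit ratio without ST2-high replicate 3 were added after seeing the data. Alternatives were DESeq2 1.42.0 size factors and Wald test, TMM without the members, limma-voom, other filters, fits of only the 6 samples in a comparison, a block for the replicate number, Rn45s left out and each library left out.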

Additional observations from a re-analysis of the deposited data

How the results depend on the processing

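The fall in ST2-high against ST2-low kept its direction in every alternative run, with median log2 fold changes of the members from -0.23 to -0.09 over the libraries left out. In ST2KO against ST2-low the falls were 20 and the rises 1 with DESeq2's Wald test. The falls were 38 with only the 6 samples compared, which share neither the spread nor the scaling with ST2-high. In ST2KO against ST2-high 4 members fell with the filter of 5 CPM in 3 samples, which left 79 tested. Leaving out 1 library at a time gave 18 to 62 falls and 0 to 1 rises in ST2-high against ST2-low. It gave 6 to 33 falls, 1 to 3 rises and medians from -0.1147 to -0.042 in ST2KO against ST2-low, and 11 to 51 rises, 3 to 10 falls and medians from 0.02 to 0.17 in ST2KO against ST2-high. Where a group was left with 2 libraries, they were assumed to vary like the others.

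For the named members, 1171 values under an alternative kept their direction and side of the threshold, 68 no longer passed, 39 passed anew and 33 changed sign. No value that changed sign passed in either fit, and the cause was not tested. In ST2KO against ST2-low, Rpl36al stood at -0.01817 with DESeq2 size factors, -0.02077 with the Wald test, -0.01727 with the 6 samples and from -0.03864 to 0.05746 over the libraries left out. Rplp2 stood at -0.02499, -0.02501 and -0.02544 in the same 3 settings, -0.005316 with the 5 CPM filter and from -0.03075 to 0.02487 over the libraries left out. Rpl36al stood at -0.0009323 with the 5 CPM filter in ST2-high against ST2-low, and at 0.002967 with it and 0.01498 with limma-voom in ST2KO against ST2-high. Over the libraries left out, the ranges in ST2-high against ST2-low were -0.0712 to 0.06018 for Rpsa, -0.1627 to 0.06623 for Rpl22l1, -0.09638 to 0.1172 for Rpl36al, -0.238 to 0.05686 for Rps4y2 and -0.03426 to 0.1294 for Rps19bp1. In ST2KO against ST2-high they were -0.1308 to 0.001736 for Rplp0, -0.1205 to 0.004657 for Rpl4, -0.02159 to 0.1369 for Rpl7, -0.1234 to 0.1138 for Rpl36al and -0.05311 to 0.1605 for Rplp1.

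The labels do not say whether samples with the same replicate number share an animal or a batch. Their deviations from the group means correlated at -0.0626 to 0.0984. With 3 samples a group, such values cannot show that nothing was shared. With the replicate block 50 members fell in ST2-high against ST2-low, 16 fell in ST2KO against ST2-low and 38 rose in ST2KO against ST2-high, and the calls over all genes went from 3189, 7607 and 7876 to 3210, 7622 and 7885. Members under 10 CPM rest on few counts, and changes as small as those of most members lie near what 3 libraries a group can detect.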
